A study of Homo sapiens with 6 samples.

Results

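CD82 and 9 other tetraspanins (CD9, CD63, CD81, CD151, TSPAN3, TSPAN4, TSPAN6, TSPAN14 and TSPAN15) were followed in RKO cells that overexpressed the long non-coding RNA LOC101927668. These 10 genes were a given list of symbols, out of 33 human tetraspanin genes and 58735 genes with a row in the deposited table. The list was chosen by FPKM values of the comparison below that were already known, so the values of the 10 genes are given as a description, without p-values, and a count of calls among them supports nothing.

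Tetraspanins are small proteins that cross the membrane with 4 helices and gather integrins, adhesion receptors, growth factor receptors and proteases into shared patches of the cell surface. Several are also packed into late endosomes and the vesicles released from them, where CD9, CD63 and CD81 serve as common marker proteins. CD82, also called KAI1, is known as a suppressor of metastasis in epithelial tumours, including colorectal carcinoma, whereas CD151 and its laminin-binding integrins are known for supporting migration.

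RKO is an established human colorectal carcinoma line. The full transcript of LOC101927668 was introduced from a lentiviral plenti6 construct, and stable cells were obtained with puromycin (LOC_OE). The control cells (Vector) are labelled as negative control. Each group had 3 libraries of total RNA, described as biological replicates, from cells grown in DMEM with fetal bovine serum. The promoter of the construct, whether the stable cells were a pool or a clone, and whether the replicates came from separate transductions are not given in the sources used here. A difference between stable lines and one due to the RNA cannot be told apart.

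The deposited unit is FPKM, the fragments on a gene divided by its exon length and by a size of the library. Between 15008842 and 18410231 reads on genes stood behind each library. The size was above the reads on genes in each Vector library (18763335, 18569332 and 18603282 against 17837954, 17048823 and 17053917). It was below them in each LOC_OE library (16010292, 16036779 and 14692797 against 18410231, 16661108 and 15008842), most in replicate 1. FPKM therefore places LOC_OE higher against Vector than a scaling by reads on genes would. The 3 Vector libraries held 1, 1 and 0 reads of LOC101927668, against 231, 270 and 276 in the LOC_OE libraries. LOC_OE replicate 1 stood apart, with a Pearson correlation across genes of 0.967 and 0.962 with the other LOC_OE libraries, against 0.982 between those libraries and 0.982 to 0.983 among the Vector libraries. Of 10 epithelial and colon markers, KRT8, KRT18, EPCAM and CDX2 were expressed, CDH1 and CDX1 were at 0 in all 6 libraries, and KRT19, KRT20, VIL1 and LGALS4 did not exceed 0.262 FPKM. Of 12 leukocyte, endothelial and fibroblast markers, CD68 alone passed the filter on low values, at 0.187 to 1.21 FPKM.

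Log2 fold changes below are LOC_OE over Vector on log2(FPKM + 1), from limma across all genes that reached 0.5 FPKM in 3 or more libraries, with the standard error (SE). This scale understates the change of genes with low FPKM. A gene was called where it changed 1.5-fold or more with a Benjamini-Hochberg adjusted p under 0.05. All 10 listed genes passed the filter. In bulk RNA, fewer cells with a transcript and less of it per cell cannot be told apart.

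CD82 lies on the plus strand of chromosome 11 from 44564427 to 44620363 on GRCh38. In Vector it had 5.98, 7.29 and 5.95 FPKM. In LOC_OE it had 0.971, 0.600 and 0.923 FPKM. All 3 LOC_OE libraries lay far below all 3 Vector libraries, and the groups did not overlap. The mean went from 6.41 ± 0.765 FPKM in Vector to 0.831 ± 0.202 FPKM in LOC_OE (SD, n = 3), a ratio of 7.71. These values stood on 455, 549 and 449 reads in Vector and on 63, 39 and 55 reads in LOC_OE, so the low group was still well above single reads. The log2 fold change was −2.02 (SE 0.12), and −2.96 (SE 0.22) with limma voom on the reads, a scale without the added 1 FPKM. LOC_OE replicate 1 was the highest of the LOC_OE libraries, and without it the log2 fold change was −2.07.

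The study lists a primer pair for CD82 by RT-qPCR. It reports RT-qPCR of p53 pathway genes in RKO and HCT116 cells with and without the overexpression, as bearing out its sequencing. The text read here names CD82 only in the primer list, so no RT-qPCR value of CD82 is given. The pair is shown because it marks a stretch of the transcript that an independent assay of the gene reads.
CD82 forward: gctcattcgagactacaacagc
CD82 reverse: gtgacctcagggcgattca
On the 2289-base coding transcript the pair spans 144 bases, with the forward primer in exon 7 and the reverse primer in exon 8 of 10. The forward primer lies at chr11:44615304-44615325 and the site of the reverse primer at chr11:44618217-44618235 on GRCh38. Both primers were found in 5 of the 14 CD82 transcripts of GENCODE version 29, of which 3 are among the 10 coding ones. The gene-level FPKM takes the reads on the merged exons of all 14 transcripts over their merged length. Separate levels of the transcripts were not measured here.

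The RefSeq window from 250 bases before to 50 after the annotated start is printed for CD82 and for TSPAN13, the family genes with the lowest log2 fold changes (assembly GRCh38.p14, both on the plus strand). Capitals mark the GC box, GGGCGG on either strand, the letters bound by Sp-family factors.
CD82, chr11:44565413-44565712: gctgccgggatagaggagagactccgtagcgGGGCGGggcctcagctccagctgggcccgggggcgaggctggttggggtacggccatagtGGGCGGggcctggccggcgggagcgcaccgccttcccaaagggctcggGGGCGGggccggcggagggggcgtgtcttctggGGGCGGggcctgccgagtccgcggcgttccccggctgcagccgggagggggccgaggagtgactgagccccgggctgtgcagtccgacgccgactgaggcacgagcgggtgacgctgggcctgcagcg
TSPAN13, chr7:16753505-16753804: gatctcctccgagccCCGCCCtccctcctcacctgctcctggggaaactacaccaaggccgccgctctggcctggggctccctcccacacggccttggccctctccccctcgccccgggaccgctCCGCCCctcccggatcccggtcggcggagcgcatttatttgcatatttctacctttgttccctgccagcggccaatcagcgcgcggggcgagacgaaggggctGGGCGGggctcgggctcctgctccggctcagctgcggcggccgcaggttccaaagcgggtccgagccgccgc
The CD82 window held 4 GC boxes and the TSPAN13 window 3, and 45.0% of 35116 windows held at least 1. GC content was 76.7% in CD82 and 71.3% in TSPAN13, against a median of 58.7% over all windows. CpG pairs numbered 33 and 30, against a median of 14. The AP-2 letters GCCNNNGGC occurred once in CD82 and at 2 places in TSPAN13, and in 23.2% of all windows. CCAAT was absent from the CD82 window, was found at 1 place in TSPAN13 and was in 34.6% of all windows. Neither window held the AP-1 letters TGANTCA, which were found in 7.71% of all windows. A TATAAA box, in 11.5% of all windows, and the 10-letter p53 motif, in 6.63%, were not found in either. Both strands were searched and the AP-2 letters can overlap GC boxes, so these matches describe the letters only. Sequence outside these windows was not searched, so a motif not found here may still lie elsewhere near the gene. RefSeq windows were matched for 7 of the 10 listed genes (not TSPAN3, CD81 and CD151) and for 25 of the 33 family genes.

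**Figure D1:**
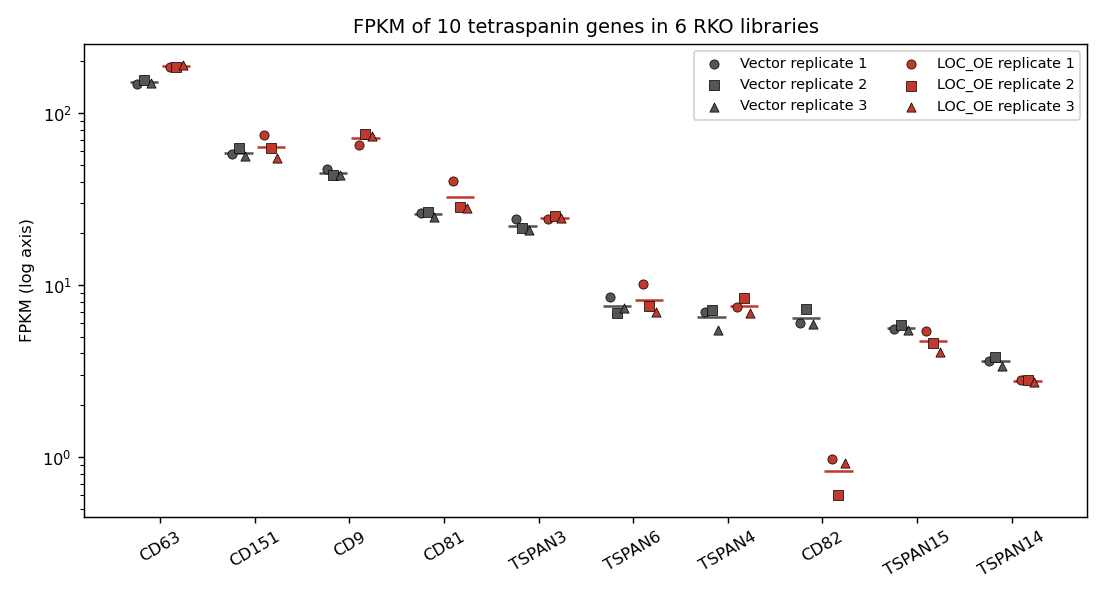
FPKM on a log axis of the 10 tetraspanin genes, ordered by Vector mean, in 3 Vector (grey) and 3 LOC_OE (red) libraries, with replicates as marker shapes and group means as lines. CD82 lies near TSPAN4 in Vector (6.41 against 6.55 FPKM) and lowest of the 10 in LOC_OE (0.831 FPKM), while CD9 lies above CD151 in LOC_OE (71.7 against 64.0 FPKM).

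CD9, CD63 and CD81 are the tetraspanins most used to mark released vesicles, and CD9 also acts in cell adhesion and membrane fusion. CD9 had 47.1, 43.5 and 43.9 FPKM in Vector and 65.2, 75.9 and 73.9 FPKM in LOC_OE. Every LOC_OE library was above every Vector library. The mean went from 44.8 ± 1.98 to 71.7 ± 5.67 FPKM (SD, n = 3), a ratio of 1.60, with a log2 fold change of 0.66 (SE 0.092). It was above 0 in each of 13 alternative fits, from 0.40 to 0.73, but at 0.41 with the same sum of FPKM and 0.40 after quantile normalization it was short of a 1.5-fold change.

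CD63, which cycles between the surface and lysosomes, was the most abundant of the 10 genes by FPKM. It had 149, 156 and 149 FPKM in Vector and 185, 186 and 189 FPKM in LOC_OE. The LOC_OE libraries were close together and above the Vector libraries, with a mean of 187 ± 2.26 against 151 ± 4.11 FPKM (SD, n = 3). The log2 fold change was 0.30 (SE 0.079), but 0.04 after scaling the libraries to the same sum of FPKM and −0.02 after quantile normalization.

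CD81, a receptor for hepatitis C virus, had 26.2, 26.6 and 24.9 FPKM in Vector. In LOC_OE it had 40.5, 28.5 and 28.2 FPKM. The groups did not overlap, but replicate 1 stood well above the other LOC_OE libraries. The log2 fold change was 0.29 (SE 0.15), with 0.13 without LOC_OE replicate 1, 0.04 with the same sum of FPKM and 0.07 after quantile normalization.

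CD151, which holds laminin-binding integrins, had 57.5, 62.7 and 56.3 FPKM in Vector and 74.4, 62.7 and 54.7 FPKM in LOC_OE. The groups overlapped, with LOC_OE replicate 1 the highest and LOC_OE replicate 3 the lowest of all 6 libraries. The log2 fold change was 0.11 (SE 0.13) and was below 0 without LOC_OE replicate 1 (−0.005), with the same sum of FPKM (−0.15) and after quantile normalization (−0.16). CD151 overlaps POLR2L on the opposite strand, which had a mean of 34.5 FPKM in Vector and 43.1 FPKM in LOC_OE, and the strand of the reads is not given in the sources used here.

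TSPAN4, known from migrasomes (vesicles left behind by migrating cells), lies 2.98 kb from CD151 on the same strand of chromosome 11. It had 6.95, 7.20 and 5.49 FPKM in Vector and 7.49, 8.39 and 6.91 FPKM in LOC_OE. The groups overlapped, and the log2 fold change was 0.19 (SE 0.12), with −0.04 under the same sum of FPKM. CD151 was 8.27 to 10.3 times TSPAN4 by FPKM in Vector and 7.47 to 9.94 times in LOC_OE, ranges that overlapped.

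TSPAN3, a broadly expressed tetraspanin, had 24.1, 21.4 and 21.0 FPKM in Vector and 24.3, 25.4 and 24.5 FPKM in LOC_OE. The groups did not overlap, but the lowest LOC_OE library was close to the highest Vector library. The log2 fold change was 0.15 (SE 0.083), and it was −0.10 with the same sum of FPKM and −0.03 after quantile normalization. TSPAN6, an endosomal tetraspanin, had 8.47, 6.86 and 7.40 FPKM in Vector and 10.1, 7.58 and 6.95 FPKM in LOC_OE. Its groups overlapped, with LOC_OE replicate 1 the highest. The log2 fold change was 0.09 (SE 0.15), with −0.05 without that library and −0.14 with the same sum of FPKM.

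TSPAN14 and TSPAN15 belong to the TspanC8 subgroup, which binds the protease ADAM10 and guides it out of the endoplasmic reticulum. TSPAN14 had 3.61, 3.84 and 3.37 FPKM in Vector and 2.81, 2.80 and 2.72 FPKM in LOC_OE. All LOC_OE libraries were below all Vector libraries, and the log2 fold change was −0.28 (SE 0.081). TSPAN15 had 5.58, 5.88 and 5.44 FPKM in Vector and 5.41, 4.62 and 4.09 FPKM in LOC_OE. Its groups did not overlap either, although LOC_OE replicate 1 was just under the Vector range, and the log2 fold change was −0.22 (SE 0.10). Both genes stayed below 0 in all 13 alternative fits.

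Of the 10 genes, CD9 (higher) and CD82 (lower) met the call rule, beside 10.2% of the 16061 genes tested, or 4.63% called higher and 5.58% called lower. CD9 did not reach the fold of this rule with the same sum of FPKM or after quantile normalization. The groups did not overlap for 7 of the 10 genes, with 4 higher (CD63, CD9, CD81 and TSPAN3) and 3 lower (CD82, TSPAN15 and TSPAN14), beside 45.3% of all tested genes. Overlap was judged on FPKM, and not on a scaling by reads on genes. The same contrast was known when the genes were listed, so nothing is read from these shares. Of the 10 log2 fold changes, 7 were above 0, and their median was 0.13 against 0.02 over all tested genes. The split was 5 above and 5 below 0 without LOC_OE replicate 1, 4 above and 6 below after quantile normalization, and 3 above and 7 below with the same sum of FPKM, which moved the median of all tested genes to −0.18. The summed FPKM of all genes was 264150 to 280648 in Vector and 305702 to 360434 in LOC_OE, where mitochondrial genes held 16.9% to 18.4% and 19.9% to 22.2% of it.

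**Figure D2:**
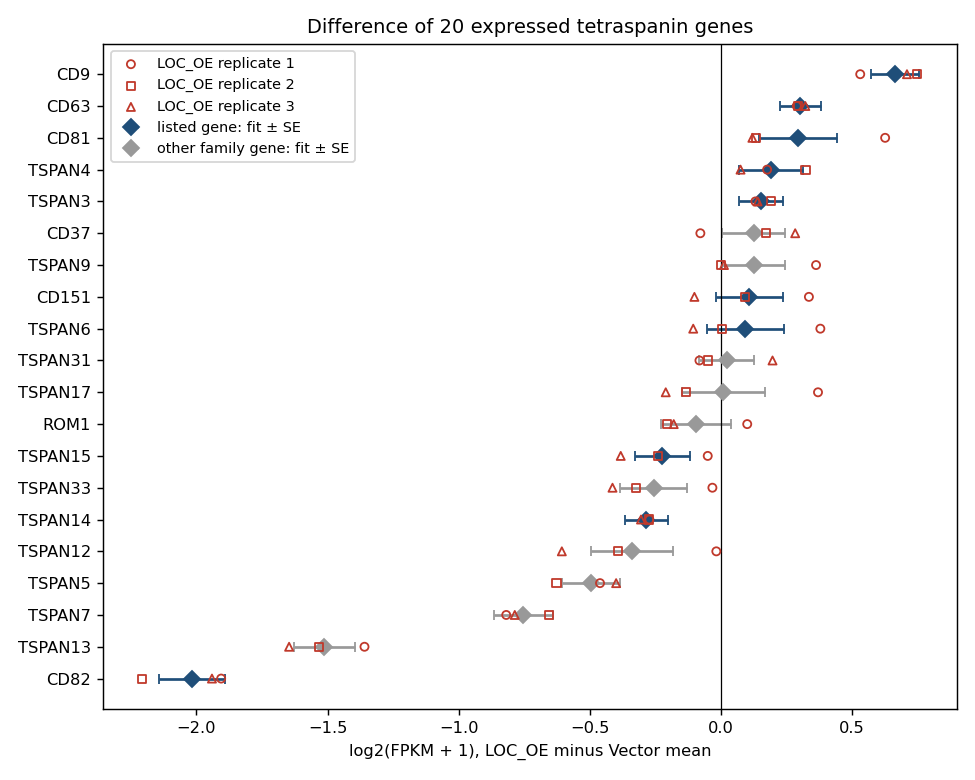
Fitted log2 fold change ± SE (diamonds) of the 10 listed tetraspanins (blue) and the 10 other tetraspanins that passed the filter (grey), with each LOC_OE library against the Vector mean (open red markers). CD82 (−2.02) and TSPAN13 (−1.51) lie lowest and CD9 (0.66) highest. LOC_OE replicate 1 sits to the right of the other LOC_OE libraries for CD81, CD82, CD151, TSPAN6, TSPAN14 and TSPAN15. The same holds outside the list for TSPAN9, TSPAN12, TSPAN13, TSPAN17, TSPAN33 and ROM1. The listed genes CD63, TSPAN4, TSPAN3, CD151 and TSPAN6, and TSPAN17 outside the list, change sign under at least 1 other scaling.

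By FPKM, the order in Vector was CD63, CD151, CD9, CD81, TSPAN3, TSPAN6, TSPAN4, CD82, TSPAN15 and TSPAN14. Neighbours in this order were separate in every library except TSPAN6 with TSPAN4 and TSPAN4 with CD82, whose ranges overlapped. In LOC_OE, CD9 stood at place 2 and CD151 at place 3, with overlapping ranges, and CD82 went from place 8 to place 10. FPKM divides by all exon bases of a gene, and TSPAN14 has 17888 of them. With the longest coding transcript as the length instead, CD81 came before CD9, CD82 moved to place 7, ahead of TSPAN6, and the first and last places were unchanged.

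The summed FPKM of the 33 tetraspanin genes was 403, 405 and 391 in Vector and 481, 453 and 442 in LOC_OE. The 10 listed genes held 82.8%, 84.4% and 82.7% of this sum in Vector and 86.6%, 88.8% and 88.7% in LOC_OE. CD82 held 1.48%, 1.80% and 1.52% in Vector and 0.202%, 0.132% and 0.209% in LOC_OE. CD9 held 10.7% to 11.7% in Vector and 13.6% to 16.7% in LOC_OE, and CD63 held 36.8% to 38.6% and 38.5% to 42.8%. These shares within a library do not depend on the scaling between libraries. CD82 and CD9 did not overlap between groups on this measure, whereas CD63 did. The ratio of CD9 to CD82 was 5.96 to 7.88 in Vector and 67.2 to 126 in LOC_OE, lowest in LOC_OE replicate 1.

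**Figure D3:**
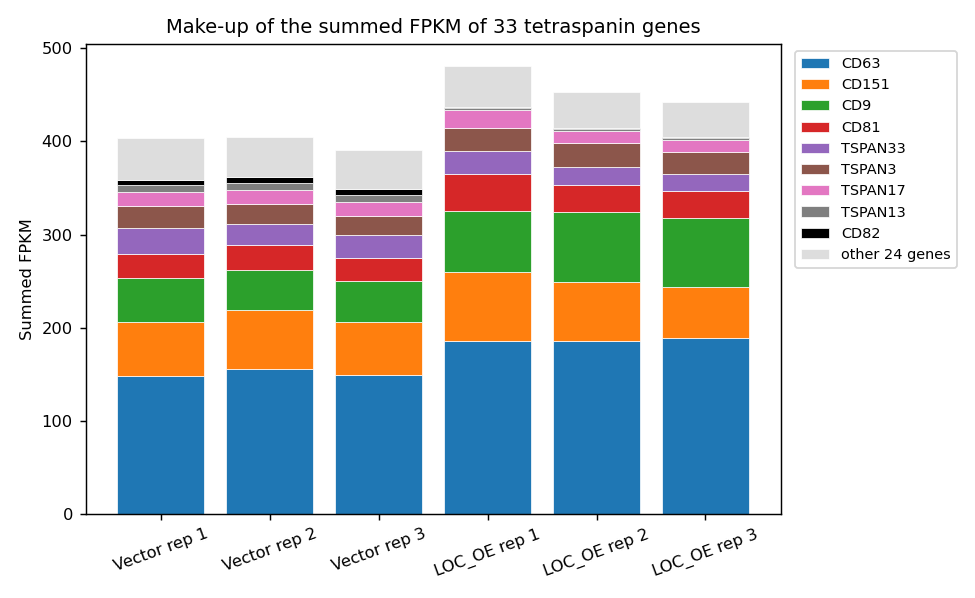
Summed FPKM of the 33 tetraspanin genes in each library, stacked by gene, with the 24 genes not named in the legend in light grey. CD63 is the largest block in every library (36.8% to 42.8% of the sum), and the black CD82 band, 1.48% to 1.80% in Vector, is barely visible in LOC_OE at 0.132% to 0.209%.

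Of the 23 tetraspanins outside the list, 10 passed the filter, and 13 did not, of which 6 were listed at 0 in all libraries (TSPAN2, TSPAN8, TSPAN19, UPK1B, CD53 and TSPAN32). None of the 10 was called higher and 2 were called lower (limma), beside 4.63% and 5.58% of all tested genes. With a pseudocount of 0.1, the same sum of FPKM or limma voom, 3 were called lower, beside 1044, 1787 and 1339 of all 16061 genes. TSPAN13 had 7.28, 6.68 and 8.31 FPKM in Vector and 2.27, 1.91 and 1.68 FPKM in LOC_OE. The groups did not overlap, and TSPAN13 fell by 1.51 on the log2 scale (SE 0.12, adjusted p = 0.0029 from limma). Its adjusted p stayed at or below 0.0334 without any 1 library. TSPAN7, a tetraspanin known from synapses, had 1.29, 1.299 and 1.52 FPKM in Vector and 0.341, 0.501 and 0.372 FPKM in LOC_OE. TSPAN7 fell by 0.75 on the log2 scale (SE 0.11, adjusted p = 0.010 from limma). It passed the filter through the Vector libraries and 1 LOC_OE library, it was left out with a mean FPKM of at least 1, and its adjusted p from limma was 0.058 without Vector replicate 2 and 0.057 without Vector replicate 3.

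TSPAN5, an ADAM10-binding TspanC8 protein, had 2.48, 1.99 and 2.19 FPKM in Vector and 1.34, 1.08 and 1.44 FPKM in LOC_OE. It fell by 0.50 on the log2 scale (SE 0.11, adjusted p = 0.027 from limma), short of the 1.5-fold rule. The adjusted p was 0.078 with no filter, 0.051 with the replicate block, 0.084 to 0.097 without any 1 Vector library and 0.073 without LOC_OE replicate 2, and 0.063 after quantile normalization. TSPAN5 passed the call rule at a pseudocount of 0.1 (−0.75, adjusted p = 0.029), with the same sum of FPKM (−0.66, adjusted p = 0.012) and with limma voom (−0.79, adjusted p = 0.011). The other abundant TspanC8 genes, TSPAN33 and TSPAN17, had log2 fold changes of −0.26 (adjusted p = 0.20 from limma) and 0.01 (adjusted p = 0.97). TSPAN33 had 27.4, 22.9 and 24.4 FPKM in Vector and 24.3, 19.7 and 18.4 FPKM in LOC_OE, so the groups overlapped. Without LOC_OE replicate 1 the adjusted p from limma was 0.020 for TSPAN33 (log2 fold change −0.37) and 0.044 for TSPAN17 (−0.17). TSPAN33 was at −0.51 (adjusted p = 0.0091 from limma) with the same sum of FPKM and −0.44 (0.013) after quantile normalization, and TSPAN17 was at −0.24 (0.16) and −0.13 (0.44). The summed FPKM of the TspanC8 genes was 50.05 to 54.3 in Vector and 53.6, 41.8 and 39.6 in LOC_OE, where replicate 1 was inside the Vector range and the other libraries were below it. For ADAM10 itself the log2 difference was 0.16 (adjusted p = 0.25 from limma). The median log2 fold change of the 10 tested genes outside the list was −0.18, and −0.28 without LOC_OE replicate 1.

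Surface partners of tetraspanins were taken as a list of 35 genes, of which 27 were tested, 1 was called higher, 2 were called lower and 24 were not called, beside 10.2% called of all tested genes. PLAUR, the urokinase receptor, had 29.3, 27.1 and 27.4 FPKM in Vector and 47.0, 50.1 and 45.0 FPKM in LOC_OE. It rose by 0.74 on the log2 scale (SE 0.082, adjusted p = 0.0057 from limma). With the same sum of FPKM (0.49) and after quantile normalization (0.50) it was short of a 1.5-fold change, so the only higher call of the list was lost. ICAM1, a leukocyte adhesion receptor that gathers in tetraspanin patches, had 42.2, 41.0 and 40.0 FPKM in Vector and 17.2, 18.0 and 20.5 FPKM in LOC_OE. It fell by 1.11 (SE 0.090, adjusted p = 0.0031 from limma). HBEGF, the growth factor precursor whose surface form associates with CD9, had 14.7, 12.1 and 13.5 FPKM in Vector and 3.37, 5.58 and 5.66 FPKM in LOC_OE. It fell by 1.32 (SE 0.18, adjusted p = 0.0086 from limma), and by 1.12 without LOC_OE replicate 1. For each of these 3 genes the groups did not overlap, and the adjusted p stayed under 0.05 without any 1 library, at most 0.0496.

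The integrin subunits, the main partners of CD151, CD9 and CD82, included no called gene among 7 tested of 10. ITGA5, chosen after its values were seen, fell by 0.51 (SE 0.076, adjusted p = 0.010 from limma), short of the 1.5-fold rule, and its adjusted p was 0.053 to 0.064 without any 1 Vector library. It passed the call rule with the same sum of FPKM (−0.76, adjusted p = 0.0067) and after quantile normalization (−0.73, adjusted p = 0.0091). Of the 7 subunits, 3 were above 0 and 4 below. Those above were ITGB5 (0.35), ITGB1 (0.33) and ITGA3 (0.07), with adjusted p = 0.18, 0.15 and 0.81 from limma. Without LOC_OE replicate 1, 5 were above 0 and 2 below, with ITGB5 at 0.54 and ITGB1 at 0.47 (adjusted p = 0.0012 and 0.0029 from limma). After quantile normalization 1 was above 0 and 6 below. The median of the 7 subunits against the Vector mean was −0.39 in LOC_OE replicate 1, 0.22 in replicate 2 and 0.27 in replicate 3. The 2 immunoglobulin-like partners of CD9 and CD81, IGSF8 and PTGFRN, had log2 fold changes of 0.13 and 0.08 (adjusted p = 0.42 and 0.51 from limma). Over all 27 genes the median log2 fold change was −0.07, against 0.02 over all tested genes.

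**Figure D4:**
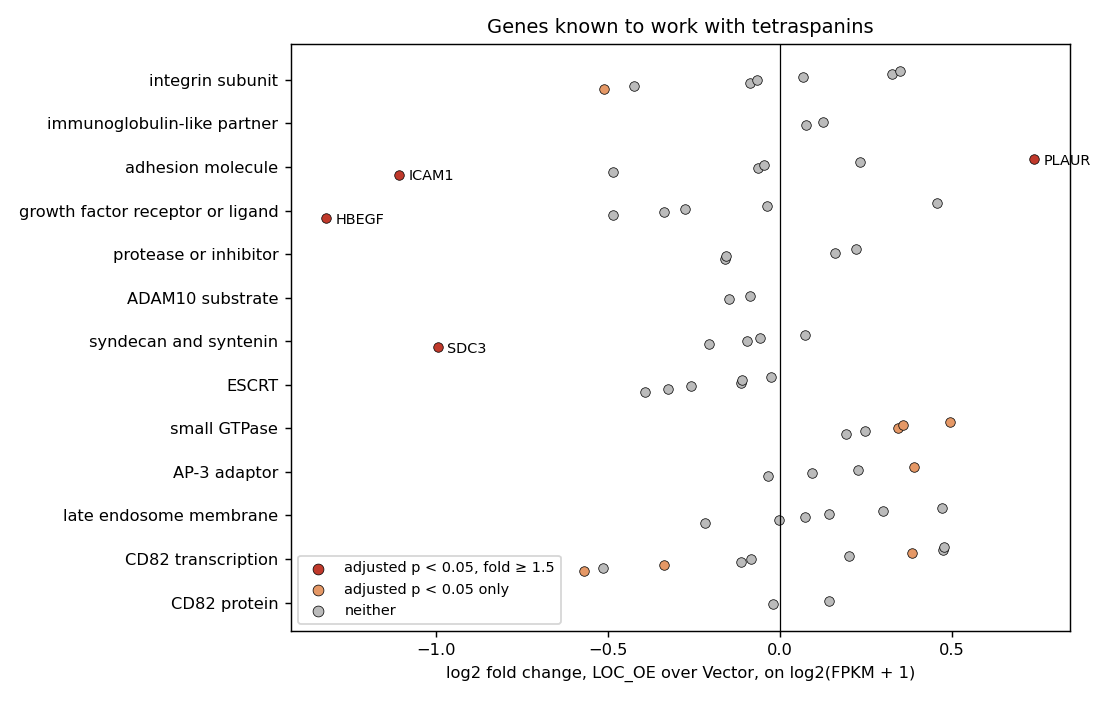
Log2 fold change on log2(FPKM + 1) of each tested gene of 3 lists (27 surface partners, 26 vesicle sorting genes and 11 CD82 regulators), 1 row per role, with called genes in red and named. PLAUR (0.74) lies farthest right and HBEGF (−1.32), ICAM1 (−1.11) and SDC3 (−0.99) farthest left, and the 5 small GTPases lie above 0, at 0.19 to 0.50 (3 of 5 above 0 with the same sum of FPKM).

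Genes that sort tetraspanins into late endosomes and released vesicles were a list of 28, with 26 tested. By limma, 0 were called higher and 1 was called lower, beside 4.63% and 5.58% of all tested genes. Of the 26, 8 had an unadjusted p under 0.05, beside 36.5% of all tested genes, and limma voom also called 1, beside 2365 of all 16061 genes. SDC3, a syndecan, had 6.67, 6.32 and 6.61 FPKM in Vector and 1.51, 3.82 and 3.47 FPKM in LOC_OE. It fell by 0.99 (SE 0.24, adjusted p = 0.035 from limma), and by 0.70 without LOC_OE replicate 1. The call was lost with no filter (adjusted p = 0.079), with the replicate block (0.054), without any 1 Vector library (0.11 each) and without LOC_OE replicate 3 (0.052). Without the fold rule 4 more genes, chosen after their values were seen, passed an adjusted p of 0.05, which makes 5 of 26 beside 20.4% of all tested genes. They were the small GTPases RAB7A, RAB11A and ARF6 (log2 fold changes 0.34, 0.36 and 0.50) and AP3M1 (0.39), a subunit of the adaptor that carries CD63 to lysosomes. With the same sum of FPKM these 4 values were 0.09, 0.11, 0.24 and 0.15, with adjusted p from 0.0499 to 0.49. ARF6 alone had an adjusted p under 0.05 from limma on this scaling (0.0499) and after quantile normalization (0.025). Each gene kept an adjusted p under 0.05 in 1 to 3 of 6 fits without a single library. The 6 ESCRT genes were all below 0 (median −0.19), with none past an adjusted p of 0.05, and over all 26 genes the median was 0.03.

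Genes taken here as acting on CD82 itself were a list of 11, all of them tested and none called by limma, beside 10.2% called of all tested genes. That each of them acts on CD82 was not tested. Of these, 6 had an unadjusted p under 0.05, beside 36.5% of all tested genes, and limma voom called 2, beside 2365 of all 16061 genes. Without the fold rule 3 passed an adjusted p of 0.05, beside 20.4% of all tested genes, named here after their values were seen. BCL3, a co-factor of NF-κB on the CD82 promoter, had 5.10, 4.24 and 4.48 FPKM in Vector and 2.77, 2.75 and 2.77 FPKM in LOC_OE, or −0.57 on the log2 scale (SE 0.088, adjusted p = 0.011 from limma, and 0.052 to 0.057 without any 1 Vector library). It passed the call rule at a pseudocount of 0.1 (−0.71), with the same sum of FPKM (−0.77) and with limma voom (−0.73). JUNB, an AP-1 subunit, had −0.34 (adjusted p = 0.036) and CTNNB1, which encodes β-catenin, had 0.39 (adjusted p = 0.040), and each kept an adjusted p under 0.05 in 1 of 6 fits without a single library. With the same sum of FPKM and after quantile normalization CTNNB1 was at 0.13 in both (adjusted p = 0.17 and 0.20) and JUNB at −0.59 in both (adjusted p = 0.0073 and 0.010), past the call rule. With the replicate block the adjusted p was 0.051 for CTNNB1 and 0.075 for JUNB. The median of the 11 genes was −0.02. ZDHHC2, a palmitoyltransferase also named after its values were seen, had 0.14 (adjusted p = 0.50 from limma).

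The 5 tested genes whose profile over the 6 libraries was nearest to that of CD82, by the root mean square difference of log2(FPKM + 1) centred on the Vector mean, were CYSRT1 (0.18), MIR4322 (0.20), RNU6-173P (0.23), AC087752.3 (0.25) and LDHD (0.27). CYSRT1 had 11.3, 12.5 and 11.6 FPKM in Vector and 1.54, 1.68 and 2.31 FPKM in LOC_OE. LDHD, a mitochondrial lactate dehydrogenase, had 4.27, 4.11 and 3.92 FPKM in Vector and 0.159, 0.502 and 0.721 FPKM in LOC_OE. AC087752.3 had 78 to 105 reads in each Vector library and 8 to 15 in each LOC_OE library. MIR4322 and RNU6-173P rested on 3 to 7 reads per Vector library and were listed at 0 in LOC_OE.

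Of the tested genes next to CD82 on chromosome 11, EXT2, 319 kb away, was at 0.29 on the log2 scale (SE 0.082, adjusted p = 0.051 from limma), and ACCS, 480 kb away, had −0.18 (SE 0.25, adjusted p = 0.65). On the other side, TP53I11, 266 kb away, fell by 0.40 (SE 0.072, adjusted p = 0.016 from limma), and PRDM11, 475 kb away, had −0.25 (SE 0.12, adjusted p = 0.17). TP53I11 had 10.4, 10.6 and 9.87 FPKM in Vector and 7.42, 7.58 and 7.67 FPKM in LOC_OE, short of the 1.5-fold rule. Its adjusted p from limma was 0.065 to 0.089 without any 1 Vector library and 0.051 without LOC_OE replicate 2. TSPAN18, the nearest tetraspanin at 106 kb, did not pass the filter, with 0 to 3 reads in each Vector library and 0 to 2 in each LOC_OE library. Within 2 Mb of CD82, a window chosen after values were seen, 25 other genes were tested, of which 1 was called higher and 2 were called lower, beside 10.2% called of all tested genes, with a median of −0.18. The antisense genes that overlap CD82, AC010768.2 and AC010768.1, held 6 and 2 reads over all libraries.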

How the data were processed

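RNA of 3 Vector and 3 LOC_OE libraries of RKO cells was prepared with a NEBNext Ultra kit and sequenced in paired ends on a NovaSeq. The submitters' processing notes name HISAT2 2.0.4, StringTie 1.3.0 and hg38, and the annotation and strand setting are not given in the sources used here. The authors deposited FPKM per gene. All 58735 identifiers matched GENCODE 29, there were 0 unused value columns, and FPKM times exon length gave whole reads (within 0.1) for 100% of values. Groups were taken from the labels. limma 3.58.1 (R 4.3.3) was fitted with a variance trend to log2(FPKM + 1), with Benjamini-Hochberg adjustment over 16061 genes. The steps were run on simulated data that held no outlying library and no shift in scaling between groups. That run therefore does not cover these features of the real libraries. An exact permutation test of 3 against 3 cannot go below 0.10. The limma p-values set the difference between groups against the spread between these libraries, moderated across all genes. Read counts cover counting error only.

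The listed genes and the other gene lists were chosen with earlier results of these data known. Named genes were the 10 listed tetraspanins, the other tetraspanins with an adjusted p under 0.05 or among the 3 highest by mean FPKM, up to 4 called genes of each other list, the 5 profiles nearest to CD82 and the 2 nearest tested genes on each side of it. Any other gene was named after its values were seen. Some genes of the lists are not reported here by name. Alternatives were a pseudocount of 0.1, no filter, a mean FPKM of at least 1, the same sum of FPKM, quantile normalization, the replicate block, limma voom on the reads and leaving out each library. The library sizes given to limma voom were those behind the FPKM, so it did not change the scaling between libraries. The plots were made by matplotlib 3.10.9 (Python 3.11.15).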

Additional observations from a re-analysis of the deposited data

How the results depend on the processing

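CD82 stayed below 0 in all 13 alternatives, with a log2 fold change of −2.82 at a pseudocount of 0.1, −2.19 with the same sum of FPKM, −2.96 with limma voom and −2.07 to −1.92 without single libraries. The genes called over all genes numbered 371 (without Vector replicate 2) to 1670 when single libraries were left out, against 1639. The same sum of FPKM gave 261 higher and 1787 lower, against 743 and 896. Over all genes, 1954 were called at a pseudocount of 0.1, 1425 after quantile normalization and 2365 with limma voom. Called tetraspanins outside the list numbered 1, in place of 2, with a mean FPKM of at least 1, 1 to 2 without single libraries, and 3 at a pseudocount of 0.1, with the same sum of FPKM and with limma voom. Surface partners called were 5, in place of 3, with the same sum of FPKM, and the higher call, PLAUR, was lost there and after quantile normalization. Vesicle sorting genes called were 0, in place of 1, with no filter or the replicate block, 2 with the same sum of FPKM, and 0 to 2 without single libraries. CD82 regulators called were 1, in place of 0, at a pseudocount of 0.1 and after quantile normalization, 3 with the same sum of FPKM and 2 with limma voom. The causes were not tested, except that TSPAN7 was not among the genes left at a mean FPKM of at least 1.

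Same-numbered libraries did not deviate together throughout (correlations of deviations 0.11, −0.03 and 0.12), so the numbers were not taken as pairs. Vector replicate 2 correlated best with LOC_OE replicate 3 (0.015). The replicate block gave 1435 genes called, 696 higher and 739 lower, and a CD82 log2 fold change of −2.02. With 3 libraries a group, no outlier test was made, and the depth limits genes such as TSPAN18 with a few reads.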
